A study of Mus musculus with 6 samples.

Results

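Activins, inhibins and follistatins form one system of the TGF-beta family, and the 6 mouse genes Fst, Fstl3, Fstl1, Inha, Inhba and Inhbb were followed through fetal ovary development and through its imitation in culture. They were taken by symbol from the 31053 genes of the count tables, and all 6 were found. The study sequenced single cells of XX gonads and set them beside gonad somatic cells made from embryonic stem (ES) cells. The gonad libraries came from ICR mice, 1 for each of 5 successive embryonic days named E10.5, E11.5, E12.5, E13.5 and E14.5. The Induced D6 library came from ES cells of 129svj x C57BL/6J background grown as aggregates for 3 steps of 2 days each. The first step used CHIR, BMP4 and EGF, the second used BMP4, retinoic acid, PD0325901, SHH and EGF, and the last used BMP4 and FGF9. Each group was 1 library, so no difference between groups has a replicate check, and strain, culture and library cannot be told apart in comparisons with Induced D6.

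Activins are dimers of beta subunits, which Inhba and Inhbb encode, and they signal through type II and type I activin receptors to Smad2 and Smad3. An inhibin pairs the alpha subunit, which Inha encodes, with a beta subunit, and competes with activin for the type II receptor. Follistatin (Fst) and follistatin-like 3 (Fstl3) bind activin in the extracellular space and keep it from its receptor. In the fetal ovary Fst acts downstream of Wnt4, Bmp2 and Foxl2 and restrains activin B, and it is a marker of the pregranulosa cells of the supporting lineage. Fstl1 carries a follistatin domain but is a secreted mesenchymal glycoprotein of separate function.

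On the GRCm38 assembly Fst lies on the minus strand at chr13:114452290-114458951. Inhba lies on the plus strand of the same chromosome at chr13:16011851-16031621. Inha is on the plus strand at chr1:75507077-75510366 and Inhbb on the minus strand at chr1:119415465-119422248. Fstl1 spans chr16:37776873-37836514 and Fstl3 spans chr10:79777272-79782630, both on the plus strand. The intervals are those of the whole genes in the GENCODE annotation. The identifiers in the files are ENSMUSG00000021765 for Fst, ENSMUSG00000020325 for Fstl3, ENSMUSG00000022816 for Fstl1, ENSMUSG00000032968 for Inha, ENSMUSG00000041324 for Inhba and ENSMUSG00000037035 for Inhbb.

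The 2 beta-subunit genes turned out to be read in different cells, and the 250 bases before their start sites are shown for that reason. Both sequences are from RefSeq (GRCm38.p6), run 5′ to 3′ on the strand of the gene, and carry each CpG in capitals. The window of Inhba is chr13:16011601-16011850 on the plus strand, and that of Inhbb is chr1:119422249-119422498 on the minus strand.
Inhba: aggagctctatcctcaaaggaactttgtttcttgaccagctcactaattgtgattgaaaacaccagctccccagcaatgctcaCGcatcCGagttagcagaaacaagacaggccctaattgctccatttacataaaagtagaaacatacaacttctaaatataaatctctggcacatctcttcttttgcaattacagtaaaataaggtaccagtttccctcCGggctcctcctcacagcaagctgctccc
Inhbb: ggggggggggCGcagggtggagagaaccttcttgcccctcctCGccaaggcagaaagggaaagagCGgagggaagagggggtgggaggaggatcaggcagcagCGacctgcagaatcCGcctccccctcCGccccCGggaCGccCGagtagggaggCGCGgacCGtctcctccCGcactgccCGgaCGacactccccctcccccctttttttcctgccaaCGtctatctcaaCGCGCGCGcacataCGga
The Inhba window was 43.2% G and C with 3 CpG, and the Inhbb window was 68% G and C with 21 CpG. Over 32851 promoter windows of the same length the median was 52.4% G and C and 6 CpG. Inhbb held more CpG than 83.7% of them, and Inhba more than 29.0%. These are descriptions of the letters alone, since the series measured RNA and nothing at the promoters.

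The libraries held 2766 to 7564 cell barcodes and 37606947 to 52146419 unique molecular identifiers (UMIs, 1 for each captured RNA molecule), and 2661 to 7067 cells were kept in each. The median UMIs per kept cell ran from 6184 in Induced D6 to 11843 at E11.5. The E13.5 and E14.5 libraries shared 114 barcodes, 2.44% of the smaller library, while the other 14 pairs shared 0.576% to 1.12%. Cells were clustered within each library without the 6 genes, and clusters were given names ending in "-like" from marker genes. Supporting-lineage-like cells numbered 561 (E11.5), 1160 (E12.5), 1538 (E13.5), 832 (E14.5) and 708 (Induced D6), and none were named at E10.5. They rested on 5 to 11 of the 12 supporting markers per cluster. Foxl2, one of those markers, was at 12.07, 48.6, 149, 144 and 37.7 CPM across those 5 libraries, where CPM is the UMIs of a gene as a share of all UMIs in the summed cells, in parts per 1e6. Other clusters high in supporting markers stayed unnamed, among them 201 cells at E11.5 and 419 at E14.5, and their values are given beside the results they bear on.

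All levels below are CPM over the summed cells of a library, class or cluster, and the 95% intervals are exact Poisson intervals that cover counting error only. The kit reads the 3′ end of transcripts and the values are not divided by length, so levels are compared for 1 gene across cells and not between genes. A difference between 2 sums is called where it reaches 2-fold and the gene has at least 10 CPM in either sum.

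Fst, the activin-binding follistatin, was high in the gonad from E11.5 onwards. Over whole libraries it stood at 23.7 CPM (E10.5), 216 (E11.5), 264 (E12.5), 193 (E13.5), 160 (E14.5) and 20.9 (Induced D6). The 4 later gonad libraries were thus all far above both the E10.5 and the Induced D6 libraries, whose levels lay close together. A library level also depends on the mix of cells, and fewer cells of a type cannot be told apart there from less RNA per cell.

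Within the gonad the Fst RNA was concentrated in supporting-lineage-like cells. Their level in the E11.5 gonad was 603 CPM (95% interval 586 to 620) and in the E12.5 gonad 789 (774 to 805). By E13.5 it was 589 (577 to 602) and by E14.5 it was 452 (436 to 468). In Induced D6 the same class stood at 130 CPM (120 to 141), below every gonad library. These cells held 58.5% (E11.5), 94.1% (E12.5), 91.6% (E13.5) and 55.2% (E14.5) of all Fst UMIs, while they made up 21.08%, 36.7%, 34.96% and 20% of the cells. At E11.5 and E14.5 a further 38.7% and 35.0% of Fst UMIs lay in unnamed clusters, which include those high in supporting markers. The 201 unnamed cells at E11.5, with Sprr2d and Tgm3 among their leading genes, had 1011 CPM, and the 419 at E14.5 had 645.

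**Figure D1:**
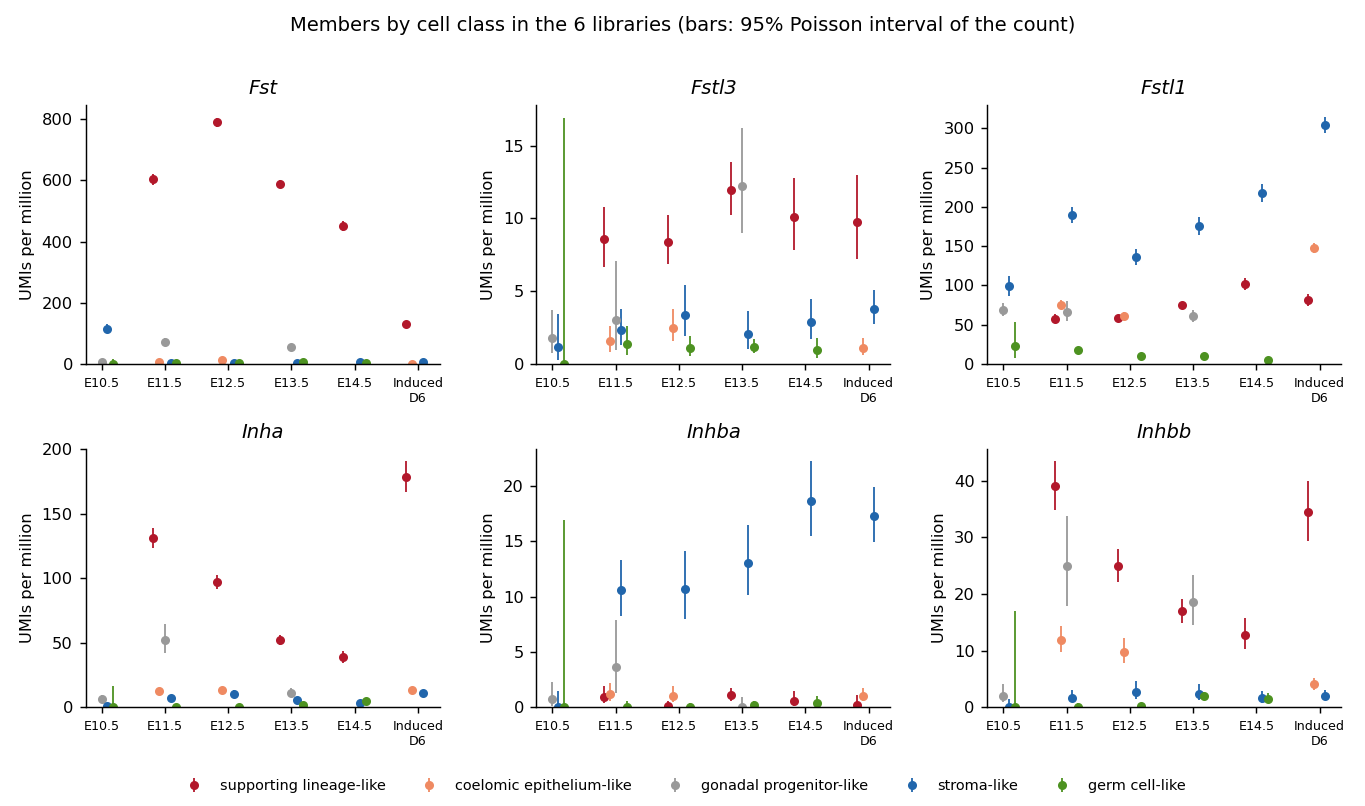
CPM (vertical axes, each panel on its own scale) of the 6 genes in 5 cell classes of each library, with points for class sums and bars for 95% Poisson intervals. From E11.5 onwards Fst, Inha and Inhbb are highest of these classes in supporting-lineage-like cells, except Inhbb at E13.5 (18.6 in progenitor-like cells); Inhba and Fstl1 are highest in stroma-like cells, and Fst in Induced D6 stands at 130 against 789 at E12.5. The E10.5 stroma-like point is the Nkx2-3- and Foxf1-led cluster.

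Most other classes of the gonad held far less Fst than supporting-lineage-like cells. Stroma-like cells from E11.5 onwards had 2.31 to 6.92 CPM and germ-cell-like cells 0 to 6.13. Coelomic-epithelium-like cells, which cover the gonad, had 7.64 CPM (E11.5), 13.49 (E12.5) and 0.786 (Induced D6). Gonadal-progenitor-like cells had 7.22 CPM at E10.5, 71.1 at E11.5 and 55.0 at E13.5. At E14.5 the mixed gonadal-epithelium-like cluster (405 cells) had 55.0 CPM. Erythroid-like cells of that stage had 43.1 CPM (12 UMIs in 30 cells) and leukocyte-like cells 31.9 (5 UMIs in 21 cells).

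Endothelium-like clusters were an exception at the 2 latest stages. They held 1.70 CPM of Fst at E10.5 and no Fst UMI at E11.5 and E12.5, but 180 CPM at E13.5 (78 cells) and 139 at E14.5 (71 cells). The same clusters held Foxl2 at 63.1 and 67.8 CPM and Inha at 13.6 and 15.1 CPM at those stages, whereas Foxl2 was at 0 to 1.76 CPM in the earlier ones. Each matched 11 of the 12 endothelial markers, and their median UMIs per cell were 18688.5 and 12494 against library medians of 9317 and 7284.5. Whether those cells held RNA of supporting cells was not tested.

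At E10.5 most Fst UMIs lay outside the gonadal-progenitor-like class. The stroma-like cluster, led by Nkx2-3 and Foxf1, stood at 116 CPM, the highest of the library's 25 clusters, and held 29.0% of its Fst UMIs. Dermomyotome- or muscle-like cells held 26.5%, unnamed cells 24.8%, and the gonadal-progenitor-like cluster 2.77%. So the near-equal whole-library levels at E10.5 and Induced D6 came from different cells, since 66.4% of Fst UMIs in Induced D6 lay in supporting-lineage-like cells.

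Fst also varied among supporting-lineage-like clusters of 1 stage. At E12.5 the cluster with Sprr2d, Pglyrp1 and Foxl2 among its leading genes (389 cells) had 1434 CPM, the highest of that library. The cluster led by Cpa1 and Irx3 (370 cells) had 852 CPM and the one led by Gng13 and Cst12 (401 cells) had 213. Foxl2 had the same order in these 3 clusters, at 112, 37.2 and 7.79 CPM. At E14.5 the Foxl2-led cluster (307 cells) had 853 CPM of Fst and the Cst12- and Gng13-led cluster (327 cells) had 227, with Foxl2 at 360 and 17.6 CPM. The smaller supporting-lineage-like clusters of E14.5 had Fst at 698 CPM (99 cells), 250 (66 cells) and 684 (33 cells), and their Foxl2 is not given here. At E13.5 the values were closer, at 866 CPM in the cluster with Foxl2 among its leading genes (589 cells) and 486 in that led by Cst12 and Gng13 (755 cells). The remaining supporting-lineage-like cluster of E13.5 (194 cells) had 452 CPM.

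The share of supporting-lineage-like cells with an Fst UMI was compared after each cell had been thinned to 3000 UMIs, which left out 8 to 79 cells per library. The E11.5 share was 51.2% (exact Clopper-Pearson 95% interval 46.9 to 55.4), and the later gonads had 67.2% (E12.5), 71.0% (E13.5) and 60.3% (E14.5). In Induced D6 it was 16.02% (13.4 to 19.0). Before thinning the shares were 64.5%, 80.9%, 87.7%, 75.0% and 24.3%. Germ-cell-like cells, taken as 1 measure of stray RNA, had thinned shares of 0.334% to 2.44% from E11.5 to E14.5. Other classes gave larger shares at late stages. Before thinning, Fst was seen in 44.9% and 38.0% of endothelium-like cells at E13.5 and E14.5. Among erythroid-like cells it was seen in 0% of 24 at E13.5 and 13.3% of 30 at E14.5. The lower Fst level of the induced cells was therefore also a smaller share of cells in which Fst was seen.

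Fst detection went with Foxl2, which encodes a transcription factor of the granulosa lineage. Among thinned supporting-lineage-like cells at E12.5, Fst was seen in 88.9% (83.0 to 93.3) of the 162 cells with a Foxl2 UMI and in 63.6% (60.6 to 66.6) of the 990 without one. At E13.5 the shares were 80.0% of 495 cells and 66.7% of 1030, and at E14.5 they were 79.4% of 233 and 51.7% of 520. In Induced D6 they were 21.4% (12.52 to 32.9) of 70 cells and 15.4% (12.7 to 18.5) of 629, with intervals that overlapped. At E11.5 only 14 thinned cells had a Foxl2 UMI. Fst was seen in 71.4% (41.9 to 91.6) of them and in 50.6% (46.3 to 54.9) of the 539 without one. The share in induced cells with a Foxl2 UMI thus lay below that in E12.5 cells without one, with intervals apart. Cells of 1 library are not replicates, and these shares are descriptions.

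**Figure D2:**
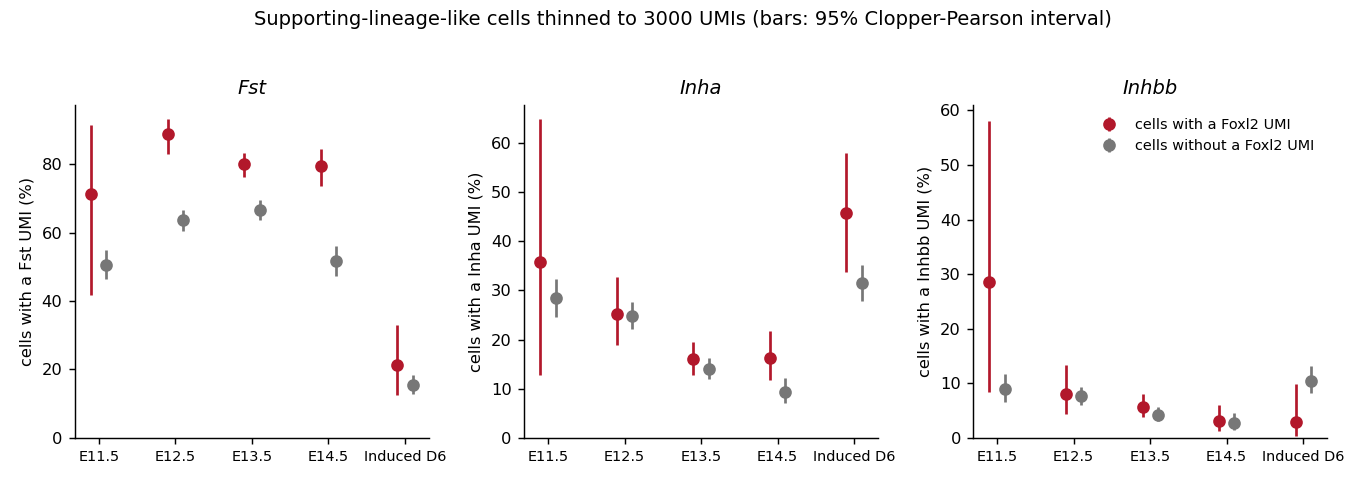
Percentage of supporting-lineage-like cells with a UMI of Fst, Inha or Inhbb (vertical axes) among cells with and without a Foxl2 UMI, by library, after thinning to 3000 UMIs; bars are 95% Clopper-Pearson intervals. For Fst at E12.5 the points are 88.9% and 63.6%, and in Induced D6 they are 21.4% and 15.4%.

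Fstl3, the second activin-binding follistatin, was low everywhere. Whole libraries held 1.69 to 5.58 CPM, and supporting-lineage-like cells held 8.57 CPM (E11.5), 8.41 (E12.5), 11.97 (E13.5), 10.1 (E14.5) and 9.77 (Induced D6). Stroma-like cells had 1.18 to 3.76 CPM and germ-cell-like cells 0 to 1.37. It was thus higher in the supporting class than in stroma in all 5 libraries that had both, and the induced cells lay within the range of the gonad libraries.

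Between supporting-lineage-like and stroma-like cells from E11.5 onwards, Fstl1 differed in the opposite direction to Fst. Stroma-like cells held 189 CPM (E11.5), 136 (E12.5), 176 (E13.5), 217 (E14.5) and 304 (Induced D6), and the Nkx2-3- and Foxf1-led cluster of E10.5 held 98.9. Supporting-lineage-like cells held 57.7, 58.2, 74.5 and 102 CPM over the same gonad stages, E11.5 first, and 81.0 when induced. In every library with both classes the stroma-like level was the higher one. Endothelium-like cells also held 116 to 184 CPM, and germ-cell-like cells 5.50 to 22.9. The highest of all clusters was a mesonephric-duct-like one of 100 cells at E10.5, at 519 CPM. Over whole libraries Fstl1 stood at 173 CPM in Induced D6 and at 57.9 to 104 in the gonads.

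Inha, which encodes the alpha subunit that turns a beta subunit into inhibin, was near 0 at E10.5, highest at E11.5 and lower at each later gonad stage. Whole libraries held 1.80 CPM (E10.5), 51.4 (E11.5), 37.8 (E12.5), 18.7 (E13.5), 14.8 (E14.5) and 49.0 (Induced D6). In supporting-lineage-like cells the E11.5 level was 131 CPM (124 to 139) and the E12.5 level 97.1 (91.7 to 103). The E13.5 level was 52.0 (48.4 to 55.9) and the E14.5 level 39.0 (34.4 to 43.9). No interval of these 4 overlapped another. The induced supporting-lineage-like cells had 179 CPM (167 to 191), above every gonad library.

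Inha was also seen outside the supporting class. Coelomic-epithelium-like cells held 12.9 CPM (E11.5), 13.49 (E12.5) and 13.6 (Induced D6). Gonadal-progenitor-like cells held 6.70 CPM at E10.5, 52.2 at E11.5 and 11.2 at E13.5. Stroma-like cells held 7.10 CPM (E11.5), 10.1 (E12.5), 5.59 (E13.5), 3.61 (E14.5) and 10.9 (Induced D6). Thinned shares of supporting-lineage-like cells with an Inha UMI were 28.6% (E11.5), 24.8% (E12.5), 14.6% (E13.5), 11.6% (E14.5) and 32.9% (Induced D6), against 0.177% to 0.984% of germ-cell-like cells.

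In the induced library Inha reached beyond the named supporting class. An unnamed cluster of 246 cells led by Ccdc182, Tgm3 and Akr1cl had 262 CPM, the highest of all clusters, with Inhbb at 73.1, Fst at 93.4 and Foxl2 at 36.3 CPM. A second unnamed cluster of 904 cells, led by genes that include Pax8 and Notum, had Inha at 81.5 and Inhbb at 27.4 CPM but Fst at 8.59. In the E11.5 and E12.5 gonads the clusters with Pax8 among their leading genes held Inha at 169 and Fst at 237 CPM at E11.5 (74 cells), and 119 and 504 CPM at E12.5 (110 cells). The induced Pax8 cluster thus had Inha in the range of gonad supporting cells with very little Fst.

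The relation of the 2 antagonists was followed as the share of Inha in the summed UMIs of Inha and Fst. In supporting-lineage-like cells the E11.5 share was 17.9% (16.9 to 18.9) and the E12.5 share 10.96% (10.4 to 11.6). The E13.5 share was 8.12% (7.57 to 8.69) and the E14.5 share 7.94% (7.05 to 8.90). In Induced D6 it was 57.8% (55.3 to 60.4). With the clusters added that held at least 8 supporting markers, the share was 16.8% at E11.5, 6.83% at E14.5 and 62.6% in Induced D6. In the Pax8 clusters it was 41.7% at E11.5, 19.1% at E12.5 and 90.5% in Induced D6. Gonad classes low in Fst had larger shares, at 48.1% in the E10.5 progenitor-like cluster (26 Inha and 28 Fst UMIs) and 62.7% and 50% in coelomic-epithelium-like cells at E11.5 and E12.5.

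**Figure D3:**
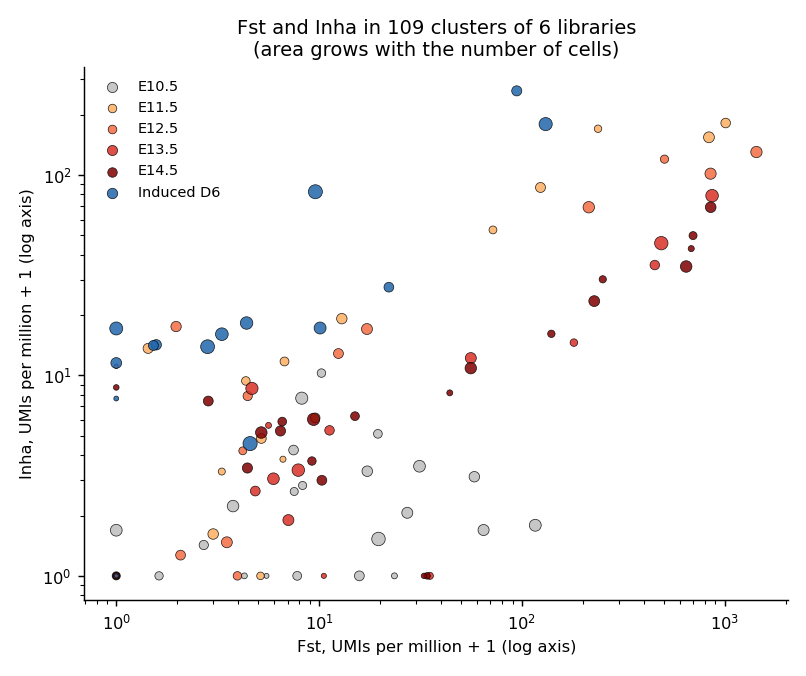
Fst (horizontal axis) against Inha (vertical axis) in CPM plus 1, both on log axes, for the 109 clusters of the 6 libraries; marker area grows with the number of cells. Gonad supporting clusters reach Fst levels of 1434, while the induced cluster with the highest Inha level, 262, has Fst at 93.4 and the highest induced Fst level is 130.

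Inhbb, which encodes the beta-B subunit of activin B and inhibin B, followed Inha. Whole libraries held 0.187 CPM at E10.5 (8 UMIs), then 18.6 (E11.5), 11.03 (E12.5), 8.18 (E13.5), 6.46 (E14.5) and 12.8 (Induced D6). All 8 UMIs at E10.5 lay in the gonadal-progenitor-like cluster, which was 8.63% of the cells. In supporting-lineage-like cells the E11.5 level was 39.0 CPM (34.9 to 43.5) and the E12.5 level 24.9 (22.2 to 27.9). The E13.5 level was 17.0 (14.9 to 19.2) and the E14.5 level 12.8 (10.3 to 15.8). Induced cells of the class held 34.4 (29.4 to 40.0), a level between those of E11.5 and E12.5 whose interval overlapped that of E11.5.

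Outside the supporting class Inhbb was present in the surface epithelium and in progenitors. Coelomic-epithelium-like cells held 11.97 CPM (E11.5), 9.86 (E12.5) and 4.07 (Induced D6), and gonadal-progenitor-like cells 24.9 at E11.5 and 18.6 at E13.5. Stroma-like cells held 1.66 to 2.73 CPM from E11.5 onwards. At E14.5 Inhbb did not follow Inha between supporting clusters. The Foxl2-led cluster had Inha at 68.1 and Inhbb at 7.502 CPM, and the Cst12- and Gng13-led cluster had Inha at 22.5 and Inhbb at 15.5.

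Inhba, which encodes the beta-A subunit of activin A, was a stromal gene in these libraries. The Nkx2-3- and Foxf1-led stroma-like cluster of E10.5 held no UMI of it, and neither gene is among the leading genes of the later stroma-like clusters. Stroma-like cells then held 10.6 CPM (E11.5), 10.7 (E12.5), 13.1 (E13.5), 18.7 (E14.5) and 17.3 (Induced D6). In supporting-lineage-like cells 8, 2, 16, 4 and 1 UMIs were counted in the 5 libraries, at 0.165 to 1.09 CPM. Stroma-like cells held 73.0% (E11.5), 81.0% (E12.5), 72.2% (E13.5), 83.2% (E14.5) and 85.7% (Induced D6) of all Inhba UMIs. Coelomic-epithelium-like cells held 1.02 to 1.22 CPM. Thinned shares of stroma-like cells with a UMI were low, at 2.49%, 2.53%, 4.19%, 5.11% and 4.42%, so most stroma-like cells showed none at this depth.

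The opposite compartments of the 2 beta subunits gave a clear split of their summed UMIs. In supporting-lineage-like cells Inhbb was 97.6% (E11.5), 99.3% (E12.5), 93.9% (E13.5), 95.7% (E14.5) and 99.4% (Induced D6) of the sum. In stroma-like cells it was 14.1%, 20.3%, 15.7%, 8.15% and 10.8%. Coelomic-epithelium-like cells lay with the supporting class at 90.8% and 90.6% in the gonads, and at 79.2% in Induced D6. The CpG-rich window printed above belongs to the gene of the epithelial classes and the CpG-poor one to the gene of the stroma. The other members with a window did not all share that pairing. The window of Fstl3, higher in supporting-lineage-like than in stroma-like cells, held 22 CpG and went with it. Against it, the window of Fstl1, highest in stroma, held 16 CpG, and that of Inha, highest in supporting cells, held 4. The start sites behind the Fstl3, Fstl1 and Inha windows lay 2, 182 and 532 bases from those of the GENCODE genes. A link of CpG content to cell class was not tested. The induced classes thus kept the split of the beta subunits seen in the gonads. The balance of Inha and Fst in induced supporting-lineage-like cells was far from that of the same class in any gonad library.

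**Figure D4:**
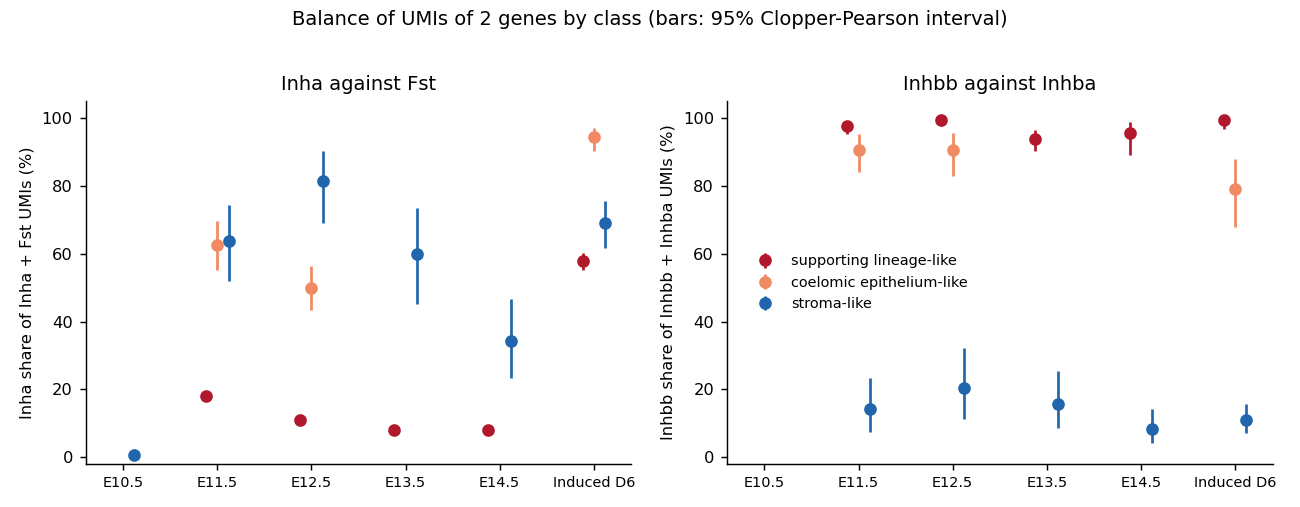
Inha as a percentage of Inha plus Fst UMIs (left) and Inhbb as a percentage of Inhbb plus Inhba UMIs (right) by class and library, with 95% Clopper-Pearson intervals. The left panel sets 57.8% in induced supporting-lineage-like cells against 7.94% to 17.9% in the gonads, and the right panel sets 93.9% to 99.4% in supporting against 8.15% to 20.3% in stroma-like cells.

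The first comparison of the time course asked what came with the change from the E10.5 to the E11.5 gonad. Gonadal-epithelium-like cells, which join the supporting, coelomic, progenitor and mixed classes, held Fst at 7.22 CPM at E10.5 and 273 at E11.5, a ratio of 37.9 (exact conditional binomial interval 26.2 to 57.0). Inha stood at 6.70 and 68.0 CPM, a ratio of 10.1 (6.89 to 15.6). Inhbb stood at 2.06 and 24.9 CPM, a ratio of 12.1 (6.08 to 28.1). Fstl1 was at 69.3 and 66.8 CPM. The size of the Fst ratio moved with the processing, from a log2 value of 3.19 over whole libraries and 4.22 at resolution 0.5 to 5.71. All 3 genes stayed called in all 10 alternatives of cells, clustering and scaling. So 3 of the 4 members above the minimum were 2-fold higher, where 9.55% of all 8342 genes were 2-fold higher, 6.21% lower and 15.8% either. At E10.5 the group was the progenitor-like class alone and at E11.5 it was mainly supporting and coelomic, so its makeup differed. Of the 7 genes listed as upstream of Fst in the ovary, 6 passed the minimum and 5 were higher. Bmp2 had 2 UMIs at E10.5 and 1302 at E11.5, a ratio of 133 (36.8 to 1101). The others had ratios of 3.01 for Nr5a1, 2.98 for Gata4, 2.65 for Rspo1 and 2.01 for Wnt4. Nr5a1 and Gata4 were progenitor markers, and Rspo1 and Wnt4 supporting markers, in the sets that named these clusters. Their ratios are therefore a description and partly reflect the naming.

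The next 3 steps of the gonadal epithelium gave 1 call among these genes. From E11.5 to E12.5 none of 4 members was called, where 1.83% of genes were (0.972% higher and 0.858% lower), and of the 4 Fst had the ratio farthest from 1, 1.69 (1.64 to 1.75). Fst was called higher in 4 of 10 alternatives. Its log2 ratio ran from 0.29 to 1.86, the latter when clustering used the members, against 0.76 as reported. The E11.5 sum leaves out the 201 unnamed cells with Fst at 1011 CPM. From E12.5 to E13.5 Fstl3 stood at 5.92 and 12.02 CPM, a ratio of 2.03 (1.62 to 2.55), the 1 call among 5 members beside 3.93% of genes higher, 6.81% lower and 10.7% either. That call was kept in 5 of 10 alternatives, with log2 ratios of 0.43 to 1.14. Leaving out barcodes shared between libraries was 1 of the settings that lost it. From E13.5 to E14.5 none of 5 members was called beside 1.71% of genes (1.32% higher and 0.398% lower), and Fst and Inha had ratios of 0.630 and 0.641. Both were called lower with the stricter cell filter, at log2 ratios of -1.49 and -1.05. At the other end of the 10 alternatives their log2 ratios were -0.27 and -0.34. The E14.5 sum leaves out the 419 unnamed cells with Fst at 645 CPM.

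Across the whole span in supporting-lineage-like cells, the inhibin subunits were lower at E14.5 than at E11.5 and Fst had no stable direction. Inha was 3.37-fold lower (2.94 to 3.86) and Inhbb 3.04-fold lower (2.39 to 3.89). These were 2 of 5 members above the minimum, where 11.3% of genes were 2-fold lower, 10.9% higher and 22.1% either. Fst was 1.33-fold lower (1.28 to 1.40), which is under 2-fold, and over the other ways of processing its log2 ratio ran from -1.45 to 1.05. Without doublet removal Inha had a log2 ratio of -0.95 against -1.75 and was no longer called, while Inhbb stayed called in all 11 alternatives of cells, clustering and scaling. At a threshold of 4-fold neither was called, and at a minimum of 50 CPM Inhbb no longer entered. Fstl1 was higher by a ratio of 1.77 (1.57 to 1.99) and Fstl3 by 1.17.

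The comparison of induced with gonad supporting cells was made at E12.5. Fst stood at 130 CPM in Induced D6 and 789 at E12.5, and was 6.07-fold lower (5.60 to 6.58). Inha stood at 179 and 97.1 CPM, a ratio of 1.84 (1.68 to 2.01), and Inhbb at 34.4 and 24.9, a ratio of 1.38 (1.14 to 1.67). Fstl1 stood at 81.0 and 58.2 CPM, a ratio of 1.39 (1.23 to 1.58). Of 4 members above the minimum only Fst was called, where 4.57% of genes were 2-fold lower, 11.4% higher and 16% either. Fst was called lower in all 11 alternatives, with log2 ratios of -3.66 to -2.62. Inha crossed the 2-fold mark in cells with a Foxl2 UMI, at a log2 ratio of 1.16, and when clusters were added by marker count.

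**Figure D5:**
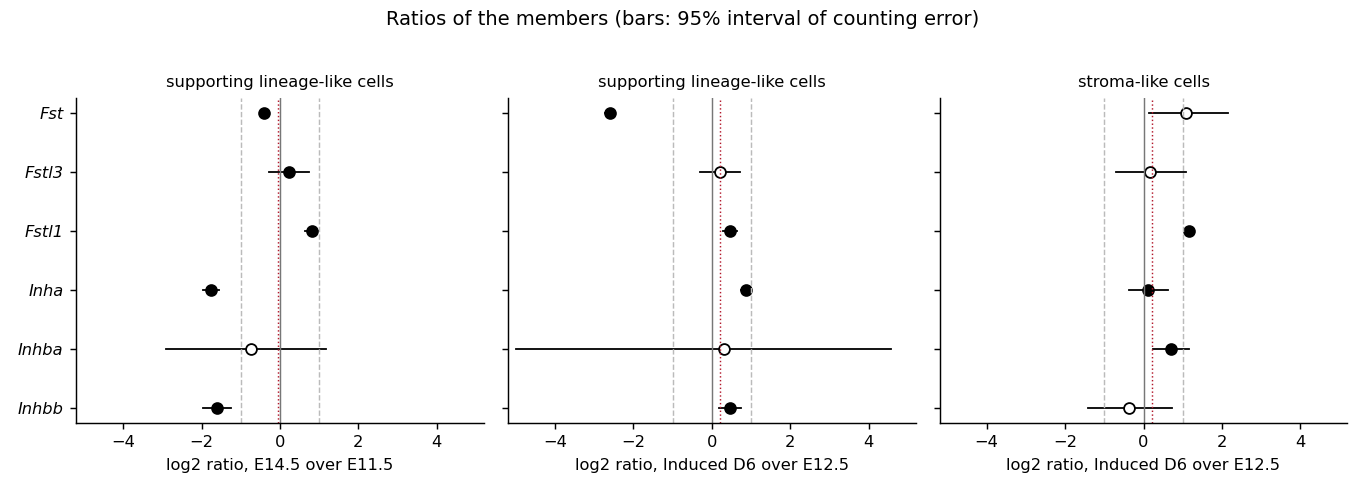
Log2 ratios of the 6 genes (horizontal axes) in supporting-lineage-like cells for E14.5 over E11.5 and Induced D6 over E12.5, and in stroma-like cells for Induced D6 over E12.5; open points are under 10 CPM in both sums, bars are 95% intervals of counting error, dashed lines mark 2-fold and the dotted line is the median of all tested genes. Inha and Inhbb lie at -1.75 and -1.60 in the left panel, Fst at -2.60 in the middle one and Fstl1 at 1.16 in the right one.

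Taking all gonadal-epithelium-like cells widened the Fst gap. Fst stood at 34.4 CPM in Induced D6 and 463 at E12.5, 13.45-fold lower (12.4 to 14.6), while Inha stood at 56.4 and 61.9 and Inhbb at 11.95 and 18.6. Fstl1 was higher by 2.195 (2.05 to 2.35). That is 1 call higher and 1 lower among 4 members, beside 11.9% and 4.45% of all genes, or 16.3% in either direction. The median gene had a log2 ratio of 0.24 here, and centred on it Fstl1 stood at 0.89 and was no longer called. Against E11.5 Fst was 7.95-fold lower and Inhbb 2.08-fold lower (1.77 to 2.45), 2 of 4 members beside 4.57% of genes lower, 8.29% higher and 12.9% either, and both comparisons share the Induced D6 library. The Inhbb call was kept in 4 of 10 alternatives, with log2 ratios of -1.16 to -0.03, and that of Fst in all 10, with -3.37 to -1.70. Coelomic-epithelium-like cells made up 1845 of the 2553 induced cells of this group and 659 of the 1819 at E12.5.

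In the stroma the member that differed in culture was Fstl1. It stood at 304 CPM in Induced D6 and 136 at E12.5, a ratio of 2.24 (2.06 to 2.44), 1 of 3 members above the minimum beside 12.7% of genes higher, 3.88% lower and 16.6% either. The median gene stood at a log2 ratio of 0.21, and centred on it Fstl1 was at 0.96, under the 2-fold mark. Inhba stood at 17.3 and 10.7 CPM, a ratio of 1.62 (1.18 to 2.24). From E11.5 to E14.5 the stromal Inhba ratio was 1.76 (1.31 to 2.39), and neither Inhba nor Fstl1, the 2 members above the minimum, was called beside 19% of genes (4.36% higher and 14.6% lower). The median gene of that comparison stood at -0.34, and centred on it Inhba was at 1.16 and was called.

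The activin and inhibin receptors were read mostly at low levels in supporting-lineage-like cells. Only 2 of 7 passed the minimum between E11.5 and E14.5. Tgfbr3l, a co-receptor of inhibin B in the pituitary, stood at 13.8 CPM (E11.5), 22.6 (E12.5), 42.7 (E13.5), 39.8 (E14.5) and 20.6 (Induced D6), and its E14.5 to E11.5 ratio was 2.90 (2.32 to 3.63). Acvr2b, a type II receptor, stood at 35.5 CPM at E11.5, 20.1 at E14.5 and 33.2 in Induced D6. In the induced comparison neither of the 2 was called, with ratios to E12.5 of 0.910 for Tgfbr3l and 1.33 for Acvr2b. The list median was a log2 ratio of 0.36 over time and 0.14 in culture, beside -0.06 and 0.22 over all genes. Tgfbr3l thus went up over the stages at which Inha and Inhbb went down.

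Between induced and E12.5 supporting cells the Smads and the target genes of the pathway were read as 2 lists, where 11.4% of all genes were called higher and 4.57% lower. All 4 Smads passed the minimum and none was called, with a median log2 ratio of 0.03. Of 8 feedback and target genes, 6 passed and 2 were higher, Ltbp1, which binds latent TGF-beta, by 3.57 and Skil, a Smad repressor, by 2.06. Their median log2 ratio was 0.51, beside 0.22 over all genes. From E11.5 to E14.5, where 10.9% of all genes were called higher and 11.3% lower, both lists together held 2 genes called higher and 2 lower. Smad3, which carries the activin signal together with Smad2, had a ratio of 2.54, while Smad2 was not called. Smad7, an inhibitory Smad, was 2.02-fold lower. Pmepa1, a target of the pathway that damps it, had a ratio of 4.23, and Cdkn1a, a cell cycle inhibitor, was 4.22-fold lower. The 7 feedback and target genes above the minimum had a median log2 ratio of -0.60 beside -0.06 over all genes.

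Among other extracellular antagonists, 4 of 12 passed the minimum in each supporting comparison, whose shares of called genes are those just given. Bambi, a pseudoreceptor, and Sparcl1, a matrix protein with a follistatin domain, were 2.21-fold and 2.05-fold lower at E14.5 than at E11.5. In culture Sparcl1 was higher by 4.99 and Sparc, its relative, by 2.14. Of the proteases that cut activin precursors and related proteins, Furin and Pcsk6 were higher at E14.5 by 2.80 and 2.07 and Pcsk5 was 3.03-fold lower. In culture Pcsk5 was the 1 protease called, with a ratio of 3.35. Of the 8 other activin-type ligands 1, Gdf11, passed over time and was not called, and none passed in culture.

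Of the 7 genes upstream of Fst, 1 was called lower in the induced supporting cells and none higher, beside 4.57% and 11.4% of all genes. Bmp2, a ligand upstream of Fst in the fetal ovary, stood at 89.8 CPM (E11.5), 95.3 (E12.5), 103.4 (E13.5), 116 (E14.5) and 34.4 (Induced D6), 2.77-fold lower than at E12.5 (2.36 to 3.28). Foxl2 was at 37.7 CPM in Induced D6 and at 48.6 at E12.5, a ratio of 0.774. Wnt4 and Nr5a1 had ratios of 1.40 and 1.95. Over time Foxl2 was the 1 gene of the list called, beside 10.9% of all genes higher and 11.3% lower, with a ratio of 11.97 for E14.5 over E11.5. Foxl2, Wnt4 and Rspo1 were among the markers that named the class, so their levels there are a description. The induced cells thus differed from E12.5 in both Fst and Bmp2 but by less than 2-fold in Foxl2, Wnt4 and Nr5a1. Whether these differences are linked was not tested.

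The shares of cells with Inha or Inhbb were compared by Foxl2 status in the same way. At E12.5 Inha was seen in 25.3% of thinned cells with a Foxl2 UMI and in 24.7% of those without, and at E13.5 in 15.96% and 13.98%. At E14.5 the shares were 16.3% and 9.42%. In Induced D6 they were 45.7% (33.7 to 58.1) and 31.5% (27.9 to 35.3). At E11.5 Inha was seen in 35.7% (12.8 to 64.9) of the 14 cells with a Foxl2 UMI and in 28.4% (24.6 to 32.4) of the 539 without. Inhbb was seen there in 4 of the 14 cells, or 28.6% (8.39 to 58.1), and in 8.91% (6.64 to 11.6) of the 539. The later shares were 8.02% and 7.58% at E12.5, 5.66% and 4.17% at E13.5, 3.00% and 2.69% at E14.5, and 2.86% and 10.49% in Induced D6.

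Members were counted together in single supporting-lineage-like cells, beside the number that separate detection would give. Thinned cells with both Fst and Inha numbered 88 (E11.5), 207 (E12.5), 169 (E13.5) and 55 (E14.5). Separate detection would have given 80.9, 192, 158 and 52.5. In Induced D6 there were 50 such cells beside 36.9, and 33 with Inha and Inhbb beside 22.4, of 699 cells. At E12.5 Inha and Inhbb were together in 24 cells beside 21.9, and at E11.5 in 12 beside 14.9. Also at E11.5, Fst and Inhbb were together in 34 cells beside 26.6, and Fstl1 and Inhbb in 3 beside 8.56. Other induced pairs were nearer to separate detection or under it. Fst and Inhbb were together in 13 cells beside 10.9, Fst and Fstl1 in 17 beside 20.5, and Fstl1 and Inha in 39 beside 42.1. The counts thus lay on both sides of those of separate detection, in Induced D6 as in the gonads.

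Across the 109 cluster sums of all libraries, the genes most like each member in pattern were found by Pearson r of log2(CPM + 10) among 9053 genes. These r are descriptions over clusters that share libraries and depth. Among the nearest to Fst were Tgfbr3l and Wfdc10 at 0.85, and Cst8 and Wfdc1 at 0.84. Nearest to Inha were Akr1cl, Rgs11 and Etnk2 at 0.90, and Tmem35a and Serpinb6b at 0.89. Inhbb was nearest to Inha itself, at 0.82, then to Pld1 at 0.81 and to Kctd14, Serpinb6b and Plxdc1 at 0.79. Inhba was nearest to Ggt5 at 0.78, Cyp1b1 and Itga8 at 0.77, Tmem45a at 0.76 and Carmn at 0.75. Fstl1 was nearest to Rcn1 at 0.89, Mfap2, Serpinh1 and Plekhg2 at 0.88 and Gpx7 at 0.87, several of which act in collagen or matrix assembly. Fstl3 was nearest to Rph3al and Etnk2 at 0.77 and to Cib2, Lzts1 and Sh2d4a at 0.76. Among the members themselves Fst had an r of 0.75 with Inha, 0.70 with Fstl3, 0.63 with Inhbb, 0.13 with Fstl1 and -0.17 with Inhba.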

How the data were processed

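The authors deposited raw UMI counts per gene and cell barcode for 6 libraries, which Cell Ranger 3.0.2 produced against mm10, per the submitters' processing notes. The 10x Chromium kit and papain dissociation are given in the labels. A cell needed 500 detected genes or more and no more than 10% of UMIs from mitochondrial genes, and predicted doublets (0.8% per 1000 cells, Scrublet scores in scanpy 1.11.5) were removed, 59 to 452 per library. Each library was clustered on its own without the 6 genes (2000 variable genes, 30 principal components, 15 neighbours, Leiden resolution 1) and named from 21 marker sets. The naming thresholds were set with the data in view, and the members, marker sets and 7 pathway lists were chosen with earlier results of these data known. The named genes were the 6 members, genes of the lists, and for each member the 5 genes of highest r with at least 50 CPM in 1 cluster sum, leaving out clone-type names, and 1 gene so chosen is not reported here; leading genes of clusters were named after their values were seen. Counts were summed per class and scaled to CPM. Poisson, conditional binomial and Clopper-Pearson intervals (SciPy 1.17.1) cover counting error at 95%. With 1 library per group no test was run. The ratio and interval steps were checked on simulated data. Of the identifiers in the files, 30934 were found in the GENCODE annotation. The files held 0 columns outside these samples.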

Additional observations from a re-analysis of the deposited data

How the results depend on the processing

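With 1 library per group no replicate could be left out, and a fit that pools the spread over groups had no residual to use. No paired analysis was possible because each group is 1 library and the groups share only the replicate number 1. The count of members called was recomputed under other filters, clusterings, scalings, thresholds and cell sets, 140 values in all. Of these, 103 stayed within 1.5 times and 37 moved. Over 599 ratios of single members, 441 moved by less than the counting interval, 158 moved by more, and no called ratio reversed. For E11.5 against E10.5 in the gonadal epithelium every count stayed within 1.5 times, which does not mean unchanged. Inhbb, at 24.9 CPM at E11.5, is under the minimum of 50 CPM. Fstl3, with a ratio of 2.63, enters when there is no minimum. For E12.5 against E11.5 the count went from 0 to 1 without doublet removal, at resolution 0.5, when clustering used the members, with the mean over cells, at 1.5-fold and with no minimum. For E13.5 against E12.5 it went from 1 to 0 with the stricter cell filter, without doublet removal, at resolution 0.5, at 4-fold, at a minimum of 50 CPM, and without shared barcodes. For E14.5 against E13.5 it went from 0 to 2 with the stricter cell filter and at 1.5-fold. For Induced D6 against E12.5 in the gonadal epithelium it went from 2 to 1 when centred and at 4-fold. Against E11.5 it went from 2 to 1 without doublet removal, at resolution 0.5, with the members in the clustering, with the mean over cells, at 4-fold, at 50 CPM and with clusters added by marker count. In supporting-lineage-like cells, E14.5 against E11.5 went from 2 to 0 at 4-fold and to 1 at 50 CPM. Induced D6 against E12.5 went from 1 to 2 over the whole library, in cells with a Foxl2 UMI, at 1.5-fold and with clusters added. In stroma-like cells, E14.5 against E11.5 went from 0 to 1 when centred and at 1.5-fold and to 2 over the whole library. Induced D6 against E12.5 in stroma went from 1 to 0 when centred and at 4-fold, and to 2 over the whole library, at 1.5-fold and with no minimum. The cause was not tested for any of these beyond what each setting itself changes. Adding clusters by marker count and leaving out shared barcodes were chosen after seeing the data. Ratios that were not called could change direction, as Fst did between E14.5 and E11.5 in supporting-lineage-like cells. Depth limits Inhba most, since supporting-lineage-like cells held 1 to 16 UMIs of it per library.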
